A study of Homo sapiens with 6 samples.

Results

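The 7 genes KLK5, KLK6, KLK7, KLK8, KLK9, KLK10 and KLK11 form the stretch of the kallikrein cluster on human chromosome 19 that holds every kallikrein gene with more than 8 reads over these libraries. They were taken by symbol from the GENCODE 29 annotation, and they are 7 of the 58381 gene IDs in the deposited table. The set was chosen with the comparison of the fractions already known, so the differences of its genes between the fractions are given as a description, with no p-value. Calls of the fits across all genes are counted for them only beside the share of all genes called. Reads were found for 6 of the 7 genes, and the same 6 averaged 10 or more normalized counts over the 6 libraries. Each of the 6 averaged over 10 normalized counts in the CD24low and in the CD24high libraries, so none entered through 1 fraction alone.

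The libraries are of MCF10AT1, a human breast epithelial line that was grown from a xenograft lesion of MCF10A cells carrying activated HRAS. Cells of the line were stained for CD24 and CD44 and sorted, which gave 3 libraries of CD24low cells with high CD44, called CSC in the column names, and 3 of cells labelled CD24high and positive for CD44, called Bulk. The labels do not say whether that fraction was gated on high CD24 or held all remaining cells, so CD24high here means the labelled fraction. Both fractions come from the same line and carry the HRAS allele, and the cultures they came from shared a medium with horse serum, insulin, EGF, cholera toxin and hydrocortisone. The series title names RUNX factors and breast cancer stem cells, and the design sets the CD24low against the CD24high fraction. It is 1 line, no label says that the replicates are separate cultures, and the spread between them may be technical. In RNA from sorted pools, fewer cells with a transcript and less of it per cell cannot be told apart.

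Kallikreins are secreted serine proteases made as inactive zymogens, which another protease, often another kallikrein, activates by removing a short leader peptide. KLK5 has trypsin-like and KLK7 chymotrypsin-like activity, and in the outer skin the pair cleaves the adhesion proteins that hold shed cells together, a step held in check by inhibitors of the SPINK family. Several of the genes are known from stratified epithelia and glands, mammary epithelium among them, and KLK10 was first described as a gene of normal breast epithelium with low levels in many breast cancer lines.

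Recovered reads ran from 16691162 to 27293177 per library, and the shallowest library was CD24high replicate 3. Reads of rRNA-type genes took 7.15%, 7.07% and 1.97% of the CD24low replicates 1, 2 and 3, and 1.30%, 2.27% and 10.2% of the CD24high replicates 1, 2 and 3. The high shares thus fell in CD24low replicates 1 and 2 and in CD24high replicate 3. The CD24 transcript itself had 588, 329 and 1370 normalized counts in the CD24low libraries, against 4043, 2325 and 5687 in the CD24high libraries. Those groups did not overlap, although CD24 has pseudogene copies that may share its reads. CD44 averaged 7547 ± 716 normalized counts in CD24low and 8475 ± 562 in CD24high libraries (SD, n = 3 each), a difference of -0.17 with an adjusted p of 0.56 in limma. Throughout, a difference is the CD24low mean minus the CD24high mean of log2 (normalized count + 1), where a normalized count is a read count divided by the size factor of its library.

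The 7 genes lie within 84.7 kb of chromosome 19, all on the minus strand of hg38. KLK5, a protein-coding gene of 1653 exon bases (ENSG00000167754.12), spans chr19:50943303-50953093. KLK6 (ENSG00000167755.14) follows at chr19:50958631-50969673 with 1976 exon bases and KLK7 (ENSG00000169035.11) at chr19:50976482-50984099 with 2434. KLK8 (ENSG00000129455.15, 1865 exon bases) occupies chr19:50996007-51002711, and KLK9 (ENSG00000213022.5, 840 exon bases) occupies chr19:51003111-51009634. The stretch ends with KLK10 (ENSG00000129451.11, 3853 exon bases) at chr19:51012739-51020175 and KLK11 (ENSG00000167757.13, 3113 exon bases) at chr19:51022216-51028039. An annotated read-through gene, AC011473.4, starts with the exons of KLK9 and ends in KLK8, and 3 antisense genes between KLK5 and KLK11 had at most 3 reads in any library.

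The coding sequences are related but not near-identical. Over the 21 pairs of members, aligned coding bases were identical at 64.67% to 71.15% of the shorter sequence, with KLK7 and KLK9 the least and KLK5 and KLK7 the most alike. The longest exact run shared by a pair was 10 to 25 bases. The coding sequences hold 293 codons in KLK5, 244 in KLK6, 253 in KLK7, 260 in KLK8, 250 in KLK9, 276 in KLK10 and 250 in KLK11.

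Promoter windows of RefSeq on GRCh38.p14, from 250 bases before to 50 bases after a start site, were found for 6 of the 7 genes, with 10 windows in all. A window is shown for each of the 4 members with the highest levels, on the minus strand and read 5′ to 3′. They are KLK5 at chr19:50952989-50953288, KLK6 at chr19:50969542-50969841, the first listed window of KLK7 at chr19:50983868-50984167 and, of 2 for KLK10, the one that holds RUNX letters, at chr19:51019660-51019959. Capitals mark the TATA letters TATAA or TTATA and the RUNX letters TGTGGT or ACCACA; the RUNX letters were searched because the series title names those factors.
KLK5: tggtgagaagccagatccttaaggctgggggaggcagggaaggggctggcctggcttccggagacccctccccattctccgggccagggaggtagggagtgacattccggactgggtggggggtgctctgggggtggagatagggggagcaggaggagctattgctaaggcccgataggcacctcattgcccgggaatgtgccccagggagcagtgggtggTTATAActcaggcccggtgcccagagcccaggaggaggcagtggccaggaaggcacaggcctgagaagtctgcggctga
KLK6: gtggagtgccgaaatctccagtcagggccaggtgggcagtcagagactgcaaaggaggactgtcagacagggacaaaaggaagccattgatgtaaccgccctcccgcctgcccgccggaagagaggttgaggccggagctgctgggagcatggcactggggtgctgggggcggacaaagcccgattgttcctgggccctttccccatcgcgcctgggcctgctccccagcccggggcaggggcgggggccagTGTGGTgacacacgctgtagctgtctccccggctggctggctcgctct
KLK7: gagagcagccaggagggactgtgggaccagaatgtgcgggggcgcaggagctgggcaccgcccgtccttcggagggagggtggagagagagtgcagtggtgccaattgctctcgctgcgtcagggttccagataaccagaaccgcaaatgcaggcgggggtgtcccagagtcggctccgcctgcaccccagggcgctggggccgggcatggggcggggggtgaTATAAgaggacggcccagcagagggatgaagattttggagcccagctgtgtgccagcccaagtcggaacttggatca
KLK10: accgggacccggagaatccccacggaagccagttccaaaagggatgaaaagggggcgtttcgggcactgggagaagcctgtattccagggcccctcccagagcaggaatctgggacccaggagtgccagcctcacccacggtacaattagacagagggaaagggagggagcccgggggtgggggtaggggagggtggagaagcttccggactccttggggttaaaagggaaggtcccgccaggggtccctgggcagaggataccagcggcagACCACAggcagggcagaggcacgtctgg

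The KLK5 window holds TTATA at position -29 and the overlapping TATAA at position -28 from its start site, and the KLK7 window shown holds TATAA at position -27. Another of the 3 KLK7 windows overlaps it and holds the same TATAA, which lies at position -129 from the start site of that window. TATA letters on either strand were thus in 3 of the 10 windows, with the KLK7 site counted in each window that holds it. They were in 20.4% of the 35116 promoter windows of the table. The RUNX letters stand at position 3 in the KLK6 window and at position 23 in the KLK10 window shown, and the other KLK10 window does not hold them. That makes 2 of the 10 windows, against 13.1% of all windows with the letters on either strand. Letters of the E-box bound by ZEB and SNAI factors, CAGGTG or CACCTG, were in 20.6% of all windows. They were found in the KLK6 and KLK9 windows, each KLK11 window and the KLK7 window with TATAA at position -129. GC boxes, GGGCGG or CCGCCC, were in 45% of all windows. Among the members they occurred in the KLK6 and KLK9 windows, each KLK7 window and the KLK11 window at chr19:51026567-51026866. These shares are of windows, not of genes. None of the 10 windows held the glucocorticoid receptor letters AGAACA or TGTTCT (14.8% of all windows), the AP-1 letters TGANTCA (7.71%) or the GRHL letters AACCNGTT or AACNGGTT (1.73%). A match is a match of letters, and its absence says only that these letters are not in the window.

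**Figure D1:**
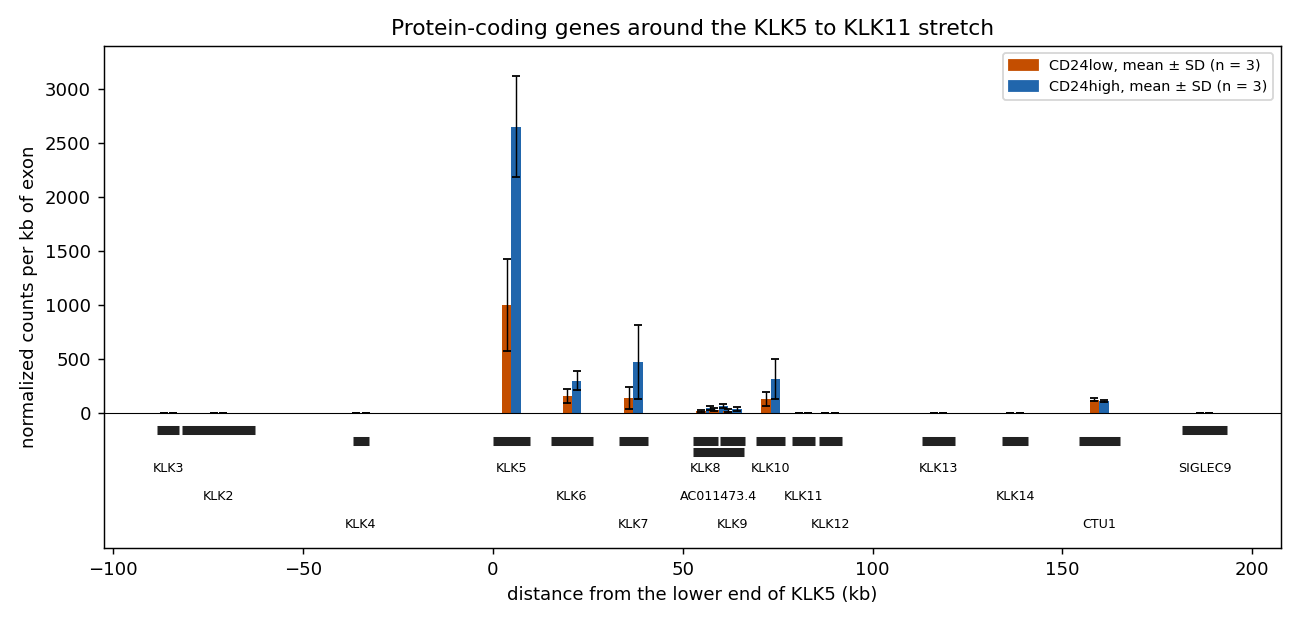
Genes of the kallikrein stretch by distance along chromosome 19 (x axis, kb) with normalized counts per kilobase of exon (y axis; bars, mean ± SD, n = 3) in the CD24low and CD24high libraries. KLK5 has the highest level in both fractions, KLK11 has no read, and the kallikrein genes on either side of the stretch are at or near 0.

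KLK5, which activates several other kallikreins, was the highest member in every library. It had 1482, 1048 and 2421 normalized counts in CD24low replicates 1, 2 and 3, and 4164, 3740 and 5241 in CD24high replicates 1, 2 and 3. Every CD24low library was below every CD24high library, and the lowest CD24high value was 1.54 times the highest CD24low value. The means were 1650 ± 702 in CD24low and 4382 ± 774 in CD24high libraries (SD, n = 3 each), a difference of -1.48 (SE 0.26), which is 2.79-fold lower in CD24low. Without each library in turn the difference lay between -1.80, without CD24low replicate 3, and -1.195, without CD24low replicate 2.

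KLK7, the chymotrypsin-like partner of KLK5 in skin, had the largest mean difference and the largest spread of the 6 detected members. It had 216, 180 and 616 normalized counts in CD24low replicates 1, 2 and 3, and 724, 623 and 2110 in CD24high replicates 1, 2 and 3. The groups were only just apart, with the lowest CD24high value 1.01 times the highest CD24low value. Its means were 337 ± 242 in CD24low and 1153 ± 831 in CD24high libraries (SD, n = 3 each), and the difference was -1.77 (SE 0.51), or 3.41-fold lower in CD24low. CD24high replicate 3 held 3.13 times the mean of the other CD24high libraries, and CD24low replicate 3 held 3.12 times the mean of the other CD24low libraries. Between its highest and its lowest library KLK7 differed 11.7-fold, against 5.00-fold for KLK5. With each library left out in turn, its difference ranged over -2.32 to -1.22, the smaller size without CD24high replicate 3.

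KLK10, a kallikrein-like protein of normal breast epithelium, had 495, 261 and 763 normalized counts in CD24low replicates 1, 2 and 3. In CD24high replicates 1, 2 and 3 it had 888, 707 and 2022. The groups overlapped, since CD24low replicate 3 lay above CD24high replicate 2. KLK10 averaged 506 ± 251 in CD24low and 1206 ± 713 in CD24high libraries (SD, n = 3 each), a difference of -1.23 (SE 0.43). As with KLK7, CD24high replicate 3 stood apart from the others, here at 2.54 times their mean. Leaving out CD24high replicate 3 gave a difference of -0.78 and leaving out CD24low replicate 2 gave -0.82, each smaller by over 1.5 times, whereas it was -1.59 without CD24low replicate 3.

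KLK6, a trypsin-like protease also known from the nervous system, had 259, 210 and 455 normalized counts in CD24low replicates 1, 2 and 3. In CD24high replicates 1, 2 and 3 it had 453, 537 and 796. CD24low replicate 3 slightly exceeded CD24high replicate 1, so the groups overlapped. The means were 308 ± 130 in CD24low and 596 ± 179 in CD24high libraries (SD, n = 3 each), and the difference was -0.99 (SE 0.29), or -1.31 to -0.75 with each library left out.

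KLK8, known as neuropsin for its role in the brain and made in skin as well, was below KLK6 in every library. It had 31.7, 29.6 and 64.6 normalized counts in CD24low replicates 1, 2 and 3, and 65.6, 84.0 and 119.8 in CD24high replicates 1, 2 and 3. The groups were apart by a factor of 1.01, again at CD24low replicate 3 and CD24high replicate 1. KLK8 averaged 42.0 ± 19.6 in CD24low and 89.8 ± 27.6 in CD24high libraries (SD, n = 3 each), a difference of -1.13 (SE 0.34), or -1.48 to -0.90 with each library left out.

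KLK9, a less studied protease of the family, was the lowest member with reads. It had 12.3, 12.4 and 33.3 normalized counts in CD24low replicates 1, 2 and 3, and 20.7, 35.6 and 51.1 in CD24high replicates 1, 2 and 3, with overlap between the groups. These values rest on 14, 13 and 34 reads in CD24low and 25, 36 and 35 reads in CD24high libraries, so counting error alone is up to 27.7% of a value. The difference was -0.92 (SE 0.45), or -1.37 to -0.62 with each library left out.

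Values of KLK8 and KLK9 are uncertain because both share exons with the read-through gene AC011473.4. It covers 747 exon bases of KLK8, or 40.05% of that gene, and 787 of KLK9, or 93.69%. Its reads came to 49, 48 and 95 in CD24low and 106, 123 and 108 in CD24high libraries. The reads of KLK8 and KLK9 together came to 50, 44 and 100 in CD24low and 104, 121 and 117 in CD24high libraries. The sum and the read-through gene differed by -4 to 9 reads per library, so the same reads may have been counted at more than 1 gene, and how much of the signal belongs to which transcript was not tested.

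KLK11, a trypsin-like kallikrein expressed in many glandular tissues, had 0 reads in all 6 libraries. A count of 0 allows up to 3 reads, which corresponds to 2.64 to 2.94 normalized counts in the CD24low libraries and 2.49 to 4.38 in the CD24high libraries. The adjoining gene on the other side of KLK11, KLK12, also had none, and neither had KLK2, KLK3, KLK13 or KLK15. KLK1, KLK4, KLK14 and the pseudogene KLKP1 had 7, 1, 6 and 8 reads over all 6 libraries, so 0 of the 9 other kallikrein genes reached the filter. CTU1, a tRNA-modifying enzyme gene that flanks the cluster, was detected at 245, 238 and 299 normalized counts in CD24low and 225, 251 and 221 in CD24high libraries, a difference of 0.16 (limma adjusted p = 0.68). SIGLEC9, the protein-coding gene beyond it, had no read.

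**Figure D2:**
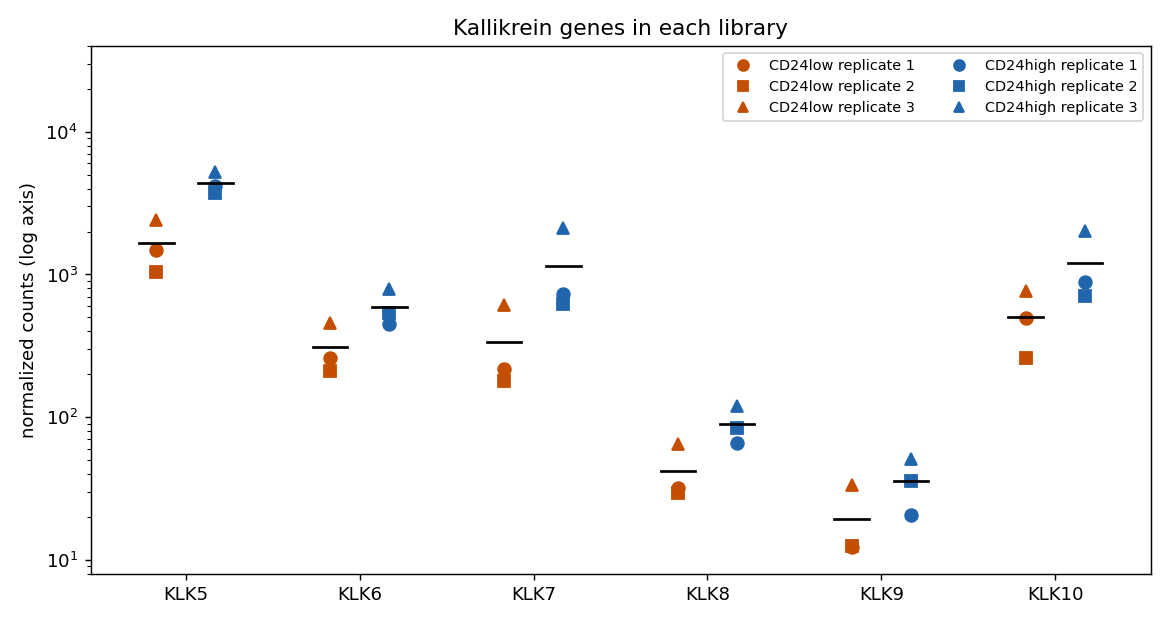
Normalized counts (y axis, log scale) of the 6 detected kallikrein genes in each CD24low and CD24high library, with lines for group means. KLK5 lies at 1048 to 2421 in CD24low and 3740 to 5241 in CD24high libraries, and replicate 3 is the highest library of its fraction for each gene.

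Per kilobase of exon, KLK5 stood above the other members in both fractions with ranges that did not overlap. In CD24low libraries its level was 998 ± 425 normalized counts per kilobase, followed by KLK6 at 156 ± 65.7, KLK7 at 139 ± 99.5 and KLK10 at 131 ± 65.2 (SD, n = 3). In CD24high libraries KLK5 was at 2651 ± 468, followed by KLK7 at 474 ± 341, KLK10 at 313 ± 185 and KLK6 at 301 ± 90.5 (SD, n = 3). The ranges of KLK6, KLK7 and KLK10 overlapped within each fraction, so their order is not separated by the spread between libraries. KLK9 at 23.0 ± 14.4 and KLK8 at 22.5 ± 10.5 in CD24low libraries formed a lower level, as did KLK8 at 48.1 ± 14.8 and KLK9 at 42.6 ± 18.1 in CD24high libraries.

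Summed over the 7 genes, the level was 2496, 1740 and 4354 normalized counts in CD24low replicates 1, 2 and 3, and 6316, 5728 and 10341 in CD24high replicates 1, 2 and 3. The groups did not overlap. The means were 2863 ± 1345 in CD24low and 7461 ± 2511 in CD24high libraries (SD, n = 3 each), and the mean difference on the log2 scale was -1.43, or 2.70-fold lower in CD24low. KLK5 supplied 59.4%, 60.2% and 55.6% of the sum in CD24low and 65.9%, 65.3% and 50.7% in CD24high libraries, so the sum follows KLK5 more than any other member.

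All 6 members with reads had a lower mean in CD24low libraries, and the median of their differences was -1.18, against -0.0066 over the 16047 genes tested. In 3 of the 6, namely KLK5, KLK7 and KLK8, every CD24low library was below every CD24high library, which held for 9.32% of all genes tested. At an adjusted p of 0.05, limma called 0 of the 6 members and 0 genes in all (0%), while 2164 genes (13.5%) had an unadjusted p below 0.05. The quasi-likelihood test of edgeR likewise called 0 members and 0 genes (0%). DESeq2 called KLK5 and KLK6 among 402 genes (2.51%), of which 184 (1.15%) were lower in CD24low. Without CD24low replicate 3, limma called KLK5, KLK6, KLK7 and KLK8 among 366 genes (2.28%). With all 6 libraries and a block for the replicate number, limma called 5 of the 6 members among 716 genes (4.46%). The count thus depended on that library and on the method. Because the members were chosen on this contrast, nothing is read from these counts.

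The size of the difference was unequal between subsets of libraries split by rRNA share, which also differ in the replicates they compare. Among the libraries with a low rRNA share, CD24low replicate 3 minus the mean of CD24high replicates 1 and 2 came to -0.47 for the summed level. Among those with a high share, the mean of CD24low replicates 1 and 2 minus CD24high replicate 3 came to -2.31. KLK5 was the member with the largest difference in the first subset, at -0.70 there and -2.07 in the second. KLK7 was at -0.13 and -3.41, KLK10 at -0.05 and -2.49, KLK6 at -0.12 and -1.77, and KLK8 at -0.20 and -1.93. KLK9 changed sign, at 0.28 in the first subset and -1.96 in the second. Replicate 3, the highest library of each fraction for every member with reads, is the CD24low side of the first subset and the CD24high side of the second. In the contrast between these subsets, the rRNA share and the replicate thus cannot be told apart. Replicate 3 had the lowest rRNA share of the CD24low libraries (1.97%) and the highest of the CD24high libraries (10.2%). Between libraries of the same number, every member with reads was lower in CD24low. There KLK7 differed by -1.74, -1.79 and -1.77 and KLK9 by -0.71, -1.45 and -0.60 in replicates 1, 2 and 3. Each subset has 1 library in 1 of its groups, so there is no replicate check, and the part of the rRNA share in these differences was not tested.

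**Figure D3:**
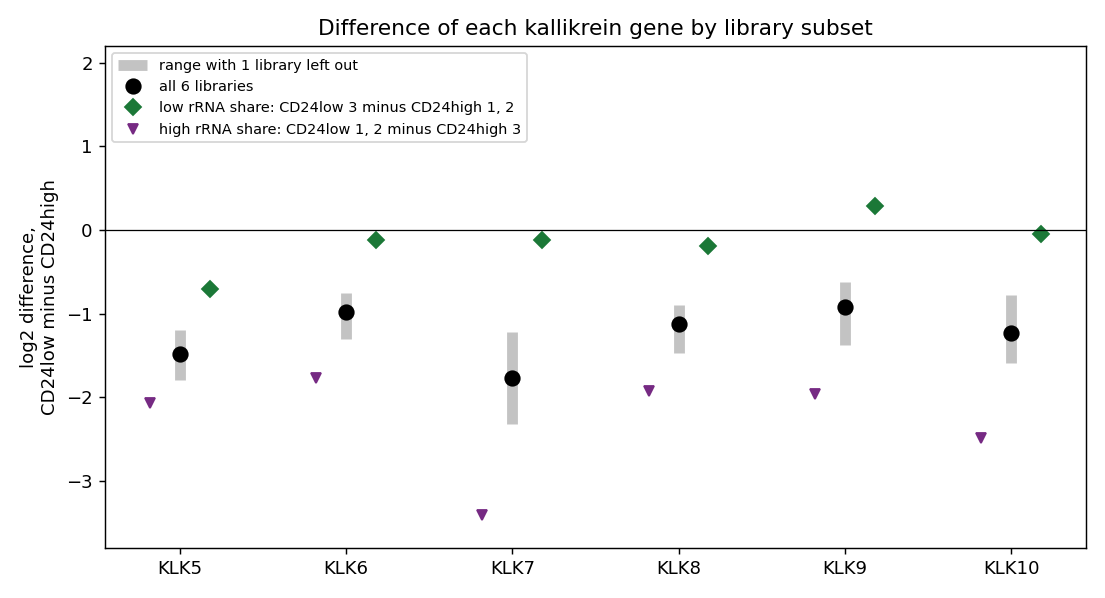
Difference CD24low minus CD24high (y axis, log2) of each detected member (x axis) over all 6 libraries and within the low-rRNA and the high-rRNA libraries. Grey bars show the range with 1 library left out. KLK5 is negative in each subset at -1.48, -0.70 and -2.07, whereas KLK6, KLK7, KLK8 and KLK10 lie between -0.20 and -0.05 in the low-share subset and KLK9 is at 0.28.

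Replicate 3 was the highest library within the CD24low and within the CD24high fraction for 6 of the 6 members with reads, an arrangement found in 10.9% of all genes tested. The excess of replicate 3 over the mean of the other libraries of its fraction was unequal between genes. In the CD24high fraction it was 1.33-fold for KLK5, 1.61-fold for KLK6, 1.60-fold for KLK8, 1.82-fold for KLK9, 2.54-fold for KLK10 and 3.13-fold for KLK7. In the CD24low fraction the excess was 1.91-fold for KLK5, 1.94-fold for KLK6, 2.11-fold for KLK8, 2.69-fold for KLK9, 2.02-fold for KLK10 and 3.12-fold for KLK7. For KLK5, KLK7 and KLK10 the order of all 3 libraries in each fraction was that of the CD24 transcript, lowest in replicate 2 and highest in replicate 3, which held for 2.99% of genes tested. The members share libraries, so these counts are not independent of each other.

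Ratios between members within a library do not depend on the scaling of that library. Of the 15 pairs of members with reads, 3 had ratios that did not overlap between the fractions, while the levels of 19.5% of all genes tested did not overlap in either direction. That share is of levels of single genes, and none was computed for ratios of gene pairs. The pairs also have genes in common, so the ratios are given only as values of these libraries. The ratio of KLK5 to KLK6 was 5.72, 4.99 and 5.32 in CD24low replicates 1, 2 and 3, and 9.19, 6.96 and 6.58 in CD24high replicates 1, 2 and 3, so the CD24low ratios were all lower. The ratio of KLK7 to KLK10 was 0.436, 0.689 and 0.807 in CD24low and 0.816, 0.881 and 1.04 in CD24high replicates 1, 2 and 3, again with every CD24low value lower, though the nearest values nearly touched. The third pair was KLK6 and KLK8, whose ratio stayed within a 1.28-fold range, between 6.4 in CD24high replicate 2 and 8.17 in CD24low replicate 1. Its CD24low values were all above its CD24high values, and the range was the narrowest of the 15 pairs.

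The ratio of KLK5 to KLK7, the pair that acts together in skin, was 6.86, 5.84 and 3.93 in CD24low replicates 1, 2 and 3, and 5.75, 6.0 and 2.48 in CD24high replicates 1, 2 and 3. Here the fractions overlapped and replicate 3 had the lowest ratio in each. KLK7 made up 8.65%, 10.3% and 14.2% of the summed level in the CD24low and 11.5%, 10.9% and 20.4% in the CD24high libraries. The widest range of any pair was that of KLK6 to KLK7, at 3.18-fold.

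**Figure D4:**
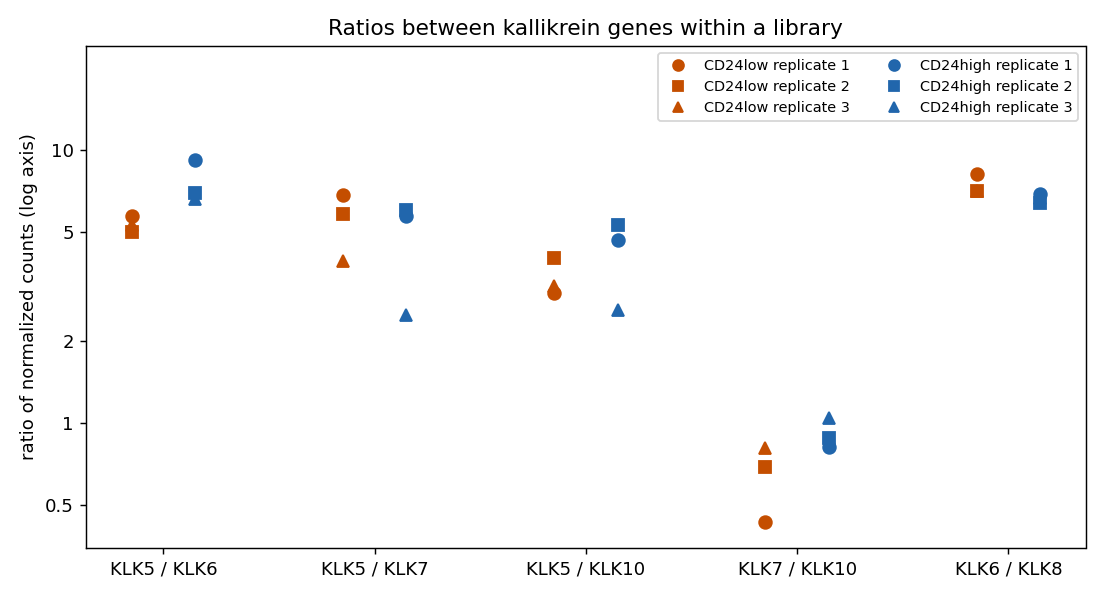
Ratios of normalized counts between pairs of kallikrein genes (y axis) in each CD24low and CD24high library. The ratio of KLK5 to KLK6 is 4.99 to 5.72 in CD24low and 6.58 to 9.19 in CD24high libraries, whereas that of KLK5 to KLK7 overlaps between the fractions and is lowest in replicate 3 of each.

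Profiles over the 6 libraries were compared by the root-mean-square difference of log2 values after each gene's own mean was subtracted, over tested genes that averaged 50 or more normalized counts. The summed kallikrein level was most like CLDN1, a tight-junction claudin, at 0.15. Next came EPN3, an endocytic adaptor, at 0.15, CTSV, a lysosomal cysteine protease, at 0.18, PCSK5, a proprotein convertase, at 0.20, and the occludin pseudogene OCLNP1 at 0.21. KLK5 on its own was nearest to CLDN1 at 0.15, CTSV at 0.16 and EPN3 at 0.19. Among the members, KLK8 ranked 16 and KLK6 ranked 23 in likeness to KLK5, KLK10 ranked 66, and KLK7 ranked 247 of the genes compared.

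The other members had other genes nearest in profile. KLK6 was most like MYO5B, a vesicle motor, at 0.08, GRHL1, an epithelial transcription factor, at 0.09, and CRYBG2 at 0.10, with KLK8 ranked 5. KLK8 was nearest to its read-through gene AC011473.4 at 0.08, with which it shares exon bases, then to OCLN, the tight-junction protein occludin, at 0.09 and to OCLNP1 at 0.10, with KLK6 ranked 4. KLK7 was nearest to IVL, the cornified envelope protein involucrin, at 0.21, to MACC1 at 0.27 and to AC005062.1 at 0.29, and KLK10 ranked 7. KLK10 was nearest to IVL at 0.28, to AC005062.1 at 0.28 and to EPN3 at 0.30. KLK9 was nearest to the keratin gene KRT15 at 0.10, to MIR6510 at 0.12 and to PADI1, a peptidylarginine deiminase, at 0.14. These genes were picked as the nearest of up to 12775 compared over only 6 libraries, and the measures are descriptions only.

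**Figure D5:**
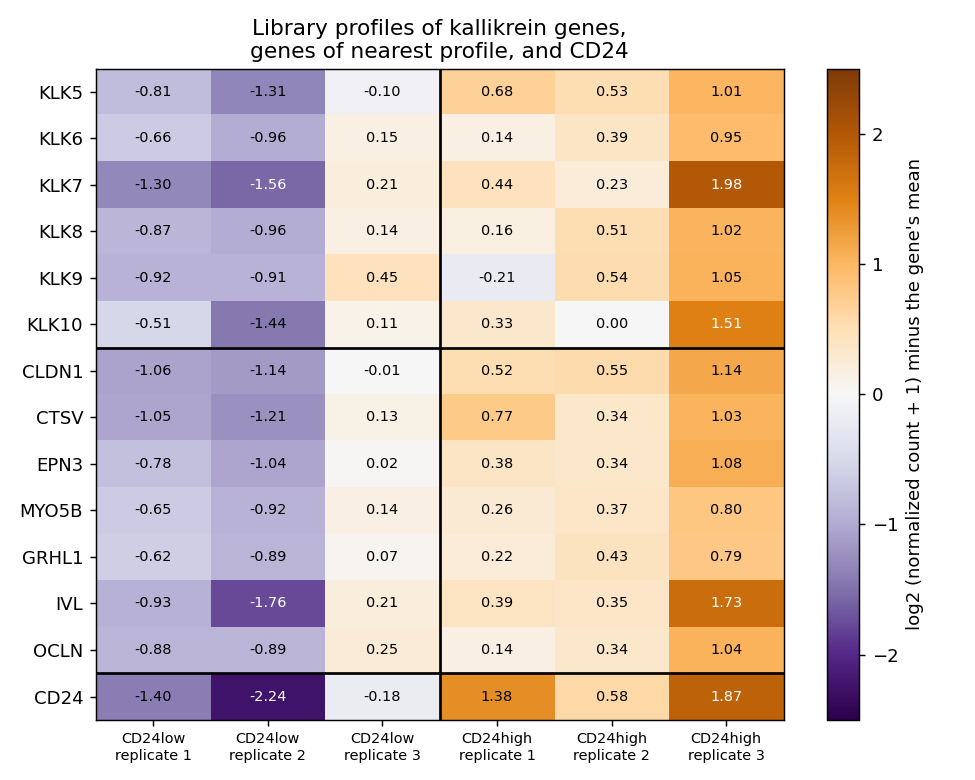
Deviation of each gene from its own mean over the 6 libraries (colour, log2) for the kallikrein genes, the genes with the nearest profiles and CD24, by CD24low and CD24high library. CD24low replicates 1 and 2 are the lowest libraries for each kallikrein gene shown, and CD24high replicate 3 the highest.

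The gene lists that follow were chosen with earlier results known, and their counts are descriptions. Over all 16047 genes tested, limma called 0% and DESeq2 2.51%, with 1.15% lower in CD24low, and the median difference was -0.0066. Of 14 genes for inhibitors of kallikreins, 11 were tested. Limma called 0 of them and DESeq2 called 1 lower and 0 higher in CD24low, with a median difference of -0.37. SPINK6, a secreted inhibitor of several skin kallikreins, was the gene that DESeq2 called. It had 5.29, 3.82 and 25.5 normalized counts in CD24low replicates 1, 2 and 3, and 58.9, 23.7 and 80.4 in CD24high replicates 1, 2 and 3. The groups overlapped at CD24low replicate 3, and the difference was -2.41 with an adjusted p of 0.18 in limma and 0.03 in DESeq2. SPINK5, the inhibitor best known for its action on KLK5 and KLK7, is given after its values were seen: it averaged 12.4 ± 4.16 normalized counts in CD24low and 21.3 ± 2.15 in CD24high libraries (SD, n = 3 each).

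The most abundant inhibitor genes were closer between the fractions. SPINT2, a membrane-bound inhibitor of matriptase and related proteases, averaged 6814 ± 1767 normalized counts in CD24low and 8630 ± 485 in CD24high libraries (SD, n = 3 each), a difference of -0.37 (limma adjusted p = 0.38). Its relative SPINT1 differed by -0.31 (limma adjusted p = 0.55), and SERPINB6 by 0.14 (limma adjusted p = 0.61). A2ML1, a broad protease trap of stratified epithelium named after its values were seen, had 326, 144 and 635 normalized counts in CD24low and 1320, 820 and 1771 in CD24high libraries. Its groups did not overlap, and the difference was -1.997 with an adjusted p of 0.14 in limma and 0.099 in DESeq2.

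Of 11 genes for proteases that can activate kallikrein zymogens, 4 were tested, and both limma and DESeq2 called 0, with a median difference of -0.54. ST14, the membrane protease matriptase, which activates KLK5 in skin, had 1921, 1585 and 3022 normalized counts in CD24low replicates 1, 2 and 3, and 2972, 3108 and 3955 in CD24high replicates 1, 2 and 3. CD24low replicate 3 exceeded CD24high replicate 1, and the difference was -0.66 (adjusted p = 0.24 in limma and 0.099 in DESeq2). PRSS8, the matriptase partner prostasin, averaged 145 ± 48.5 in CD24low and 265 ± 69.0 in CD24high libraries (SD, n = 3 each), a difference of -0.88 (adjusted p = 0.21 in limma and 0.06 in DESeq2). PLAU, the urokinase gene, differed by -0.41 (limma adjusted p = 0.56).

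Of 16 genes for substrates and receptors of kallikreins, 9 were tested. Limma called 0 of them and DESeq2 called 2 higher and 0 lower in CD24low, against 2.51% of all genes called by DESeq2. The median difference was 0.55, against -0.0066 over all genes tested. The 2 genes called were FN1, the matrix protein fibronectin, and TGFB1, a latent growth factor. FN1 averaged 22745 ± 15327 normalized counts in CD24low and 3367 ± 953 in CD24high libraries (SD, n = 3 each), a difference of 2.57 (adjusted p = 0.072 in limma and 0.0012 in DESeq2). TGFB1 averaged 434 ± 232 in CD24low and 163 ± 34.6 in CD24high libraries, a difference of 1.28 (adjusted p = 0.18 in limma and 0.0023 in DESeq2). MBP differed by -0.54 (limma adjusted p = 0.22) and APP by -0.03 (limma adjusted p = 0.94). The desmosomal substrates of KLK5 and KLK7 in skin had few or no reads, with DSC1 at 0 in every library and CDSN and DSG1 at 4 and 3 reads over all 6 libraries.

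Of 19 genes of late keratinocyte differentiation, the programme in which KLK5 and KLK7 act in skin, 6 were tested. Here limma called 0 and DESeq2 called 1 lower and 0 higher in CD24low, and the median difference was -0.999. ABCA12, a lipid transporter of the skin barrier, had 285, 302 and 502 normalized counts in CD24low replicates 1, 2 and 3, and 818, 886 and 902 in CD24high replicates 1, 2 and 3. The groups did not overlap, and the difference was -1.31 (adjusted p = 0.068 in limma and 2.2e-06 in DESeq2). IVL, the gene nearest to KLK7 in profile, averaged 29.1 ± 20.5 in CD24low and 88.9 ± 53.3 in CD24high libraries, a difference of -1.65 (limma adjusted p = 0.22). DMKN differed by -0.38 (limma adjusted p = 0.38) and KRT10 by 0.33 (limma adjusted p = 0.4). KRT1, LORICRIN, CASP14 and TGM3 were at 0 in every library, and these 4 are named after their values were seen.

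Of 20 genes for hormone receptors and epithelial transcription factors, 17 were tested, limma called 0 and DESeq2 called 2 lower in CD24low, TP63 and GRHL2, with a median difference of -0.26. TP63, a regulator of basal and stratified epithelium, had 88.1, 113.7 and 95.0 normalized counts in CD24low and 291, 258 and 190 in CD24high libraries, a difference of -1.29 (adjusted p = 0.068 in limma and 7e-06 in DESeq2). Every CD24low library was below every CD24high library. GRHL2, a factor of epithelial junction genes, averaged 697 ± 279 in CD24low and 1217 ± 160 in CD24high libraries (SD, n = 3 each), a difference of -0.87 (adjusted p = 0.19 in limma and 0.036 in DESeq2). NR3C1, the receptor for the hydrocortisone in the medium, differed by -0.02 (limma adjusted p = 0.95), RXRA by -0.02 (limma adjusted p = 0.97) and ELF3 by -0.57 (limma adjusted p = 0.54).

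Markers of epithelium were detected in all 6 libraries, at unlike levels. The luminal marker KRT19 had only 5.29 to 17.6 normalized counts in CD24low and 9.96 to 30.7 in CD24high libraries. The basal marker KRT14 had 178 to 237 in CD24low and 203 to 571 in CD24high libraries, against 22521 to 25817 and 28018 to 31907 for KRT5. The 5 basal markers, KRT5 among them, summed to 37172 to 40104 normalized counts in CD24low and 48076 to 61497 in CD24high libraries, and DESeq2 called 1 of them lower and limma 0. The 5 luminal markers, KRT8 among them, summed to 75457 to 120141 in CD24low and 104647 to 124665 in CD24high libraries, and neither tool called any. The 6 fibroblast markers summed to 887 to 3839 in CD24low and 52.6 to 358 in CD24high libraries, most of it DCN except in CD24high replicate 3, while LUM was at 0 in every library and PDGFRA at 0 in 5 of the 6. Markers of leukocytes summed to 53.9 to 118.4 in CD24low and 48.4 to 63.1 in CD24high libraries with CD3E at 0, those of endothelium to 104.9 to 342 in CD24low and 87.1 to 396 in CD24high libraries, and those of adipocytes to 13.2 to 17.2 in CD24low and 5.81 to 8.89 in CD24high libraries with ADIPOQ at 0. The endothelial sum was mostly PECAM1, with VWF, CDH5 and KDR at 1, 9 and 15 reads over all 6 libraries. Most of the leukocyte sum was CD68, with PTPRC and LYZ at 5 and 12 reads. The part of these markers in the kallikrein differences was not tested.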

How the data were processed

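RNA of 3 CD24low and 3 CD24high libraries of MCF10AT1 cells was sequenced after depletion of rRNA with strand-specific libraries, per the labels' protocols. The table the authors deposited holds a signal per gene and library, namely read counts after division by a size factor. The submitters' processing notes list STAR 2.5.2, R 3.5.0, DESeq2 and hg38. Which program counted the reads, with which strand setting, DESeq2 version and annotation, is not given in the sources used here. Values were whole multiples of 1 step in each library, and dividing by it gave whole reads within 0.1 for 100% of values. Totals ran from 16691162 to 27293177 reads, and floors for a count of 0 (3 reads) cover counting error only, as PCR copies were not told from molecules.

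GENCODE 29 gave symbols and coordinates for 58261 of 58381 IDs, and 27150 IDs had no read. The members and gene lists were chosen with earlier results of these data known. The main test was limma with its trend option, two-sided, on log2 values with a pseudocount of 1, on the 16047 genes that averaged 10 or more normalized counts, with Benjamini-Hochberg adjustment over all of them at 0.05. The pseudocount understates differences of low genes. DESeq2 and the quasi-likelihood test of edgeR were run on the recovered reads. Adjusted p-values reported for single genes come from these fits. Alternatives were pseudocounts of 0.5 and 5, no filter, a mean of at least 50, other scalings, limma without the trend, a replicate block, each library left out and subsets by rRNA share (split at 5%).

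Named genes were the members, other kallikreins, of each list the 3 highest by mean and up to 3 past an adjusted p, protein-coding neighbours within 100 kb, the nearest profiles, CD24 and CD44; a result that this rule took is not reported here. Promoter windows are RefSeq's, and Biopython aligned the coding sequences. The fits were checked on simulated counts with the same spread setting for every gene and no replicate or rRNA effect. That check does not show how they perform at the spread between these libraries. Tests were run in R 4.3.3 with DESeq2 1.42.0, edgeR 4.0.16 and limma 3.58.1. Tables, alignments and figures used Python 3.11.15 with Biopython 1.88, numpy 2.4.6, matplotlib 3.10.9 and pandas 2.3.3.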

Additional observations from a re-analysis of the deposited data

How the results depend on the processing

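The number of genes past the threshold depended on the method. Of 16047 genes tested, limma called 0 (0%) and 0 of 6 kallikrein genes. With no filter it called 164 of 31231 genes (0.525%) and 1 kallikrein gene, KLK5. DESeq2 called 402 of 16047 genes (2.51%) and 2 kallikrein genes. Leaving out each library in turn gave 0 to 366 genes (0% to 2.28%) and 0 to 4 kallikrein genes in limma. The maximum came without CD24low replicate 3. With the replicate block, limma called 716 genes (4.46%) and 5 kallikrein genes, and edgeR 705 (4.39%) and 5, in each case all tested members but KLK9. Same-numbered libraries deviated together with r of 0.27, 0.30 and 0.05 across genes in replicates 1, 2 and 3. For differently numbered libraries r was -0.26 to 0.08. CD24low replicates 1 and 2 were best matched by their own number, whereas CD24low replicate 3 was slightly nearer to CD24high replicate 1 (0.08). The titles give only a replicate number, and whether the numbers are pairs was not settled. Calls with and without the block are therefore both given. The summed level was -0.47 within the low-rRNA and -2.31 within the high-rRNA libraries. Of 119 values for single members, 107 moved by less than the spread between replicates, 11 moved by more and 1 changed sign, KLK9 at 0.28 within the low-rRNA libraries. Every value that moved by more or changed sign came from the subsets by rRNA share. Part of the 107 could not move, since the filter, the trend option and the block in limma leave a member's difference as it was. KLK5 was at -1.4795 in each of those settings. Of 412 values for 23 other genes, 7 changed sign, all with a library left out: APP ranged over -0.0762 to 0.0130, NR3C1 over -0.1395 to 0.0363 and RXRA over -0.1271 to 0.1244. DESeq2 and edgeR give no value for a sum. Counting error is largest for KLK9, at up to 27.7%, and KLK8, at up to 17.96%, in both cases in CD24low replicate 2.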
